A study of Homo sapiens with 6 samples.

Results

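The aminoacyl-tRNA synthetase genes of SY5Y neuroblastoma cells were followed across control cells and cells overexpressing DLX5. The members were taken by gene name: every protein-coding gene of the deposited count table whose symbol is that of a cytosolic or mitochondrial synthetase, of the scaffold proteins AIMP1 and AIMP2, or of the kinase PSTK. This gave 41 of 58735 genes: 21 for cytosolic enzymes, 17 for mitochondrial enzymes (symbols ending in 2) and 3 for the scaffolds and the kinase. SY5Y is an established human neuroblastoma line, grown here in DMEM/F12 with fetal bovine serum. The genotype label is DLX5 overexpression for 3 libraries and Control for the other 3; both groups are the same line in the same medium. DLX5 is a homeobox transcription factor. The labels used here do not say which vector the control cells carry or whether the overexpressing line is 1 clone. They also do not say whether the libraries of a group came from separate cultures. The p-values thus set the difference between the groups against the scatter of these libraries only, and that scatter may be technical.

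Aminoacyl-tRNA synthetases attach each amino acid to its own tRNA, the step that fixes the meaning of the genetic code. The cytosol and the mitochondrion use mostly separate enzymes, all of them encoded in the nucleus. GARS and KARS each encode both forms and are counted here with the cytosolic enzymes, and mitochondrial glutaminyl-tRNA is made in a detour by EARS2 and an amidotransferase. Several cytosolic enzymes sit in a multi-synthetase complex held together by AIMP1, AIMP2 and EEF1E1. Uncharged tRNA is sensed by the kinase GCN2 (gene EIF2AK4), which raises translation of ATF4, and ATF4 in turn drives many cytosolic synthetase genes through a short promoter element.

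Library totals lay between 14644077 and 16886026 counts, and 17269 genes passed the filter on low counts, all 41 members among them. DLX5 itself stood at 1582, 1569 and 1677 CPM (counts scaled to library size by the TMM factors of edgeR) in DLX5 libraries 1 to 3 and at 12.4, 12.3 and 13.8 CPM in control libraries 1 to 3. The groups differed widely: 58.6% of all tested genes passed an adjusted p of 0.05 (edgeR quasi-likelihood test, Benjamini-Hochberg); 29.8% of all tested genes were higher with DLX5 and 28.8% lower. In 62.5% of tested genes the 3 libraries of each group did not overlap. Marker lists of cell types moved as well. All 12 sympathetic neuroblast markers were lower with DLX5 (summed level 2456 ± 73.5 CPM against 7127 ± 351 CPM, SD, n = 3 each), with single libraries between 2387 and 2533 CPM and between 6920 and 7533 CPM. All 9 fibroblast markers were higher (6811 to 7077 CPM against 1513 to 1567 CPM). Of 7 epithelial markers 5 were higher and 1 lower (363 to 385 CPM against 20.4 to 24.1 CPM). Of 8 Schwann and glial markers 6 were tested, with 3 higher and 2 lower (34.7 to 37.0 CPM against 43.1 to 49.1 CPM), and the defining markers GFAP and SOX10 were too low to test. Of 7 endothelial and blood markers only PECAM1 was higher among 4 tested, and CDH5, PTPRC and CD68 were near 0. Summed, these 7 markers stood at 2.65 to 3.97 CPM with DLX5 and at 1.32 to 2.07 CPM in controls. What part any of these had in the synthetase values was not tested. In bulk libraries, fewer cells of a type and less RNA per cell cannot be told apart.

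The promoter element named above is shown first, because it was found mostly in the promoters of cytosolic genes. RefSeq promoters on GRCh38.p14, running from 250 bases before to 50 bases after the start site, were matched for 33 of the 41 genes; AARS2, DARS, LARS, TARSL2, VARS, VARS2 and YARS were among the 8 with no entry. The core of the C/EBP-ATF response element, TGATGNAA on either strand, occurred in 7 of 16 cytosolic promoters, in 1 of 14 mitochondrial promoters and in 0 of 3 for AIMP1, AIMP2 and PSTK. It was held by 4.46% of all 27305 genes with a RefSeq promoter, and by 7 of 27 matched genes of the ATF4 list. The stricter form TGATGCAA occurred in 6 of 16 cytosolic promoters, in 0 of 14 mitochondrial ones and in 1.08% of all genes. The windows below run 5′ to 3′ on the strand of the gene, with the core in capitals; TTGCATCA and TTTCATCA are the core read from the other strand.
AARS, chr16:70289675-70289704, minus strand: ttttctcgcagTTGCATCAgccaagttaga
CARS, chr11:3057407-3057436, minus strand: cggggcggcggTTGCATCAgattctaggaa
GARS, chr7:30594834-30594863, plus strand: ttacgcggcgaTTTCATCAtgctccgagcc
IARS, chr9:92293692-92293721, minus strand: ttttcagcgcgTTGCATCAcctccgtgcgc
MARS, chr12:57488053-57488082, plus strand: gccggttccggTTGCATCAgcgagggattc
NARS, chr18:57621804-57621833, minus strand: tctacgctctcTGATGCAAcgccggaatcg
TARS, chr5:33440956-33440985, plus strand: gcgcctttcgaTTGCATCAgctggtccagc
YARS2, chr12:32756076-32756105, minus strand: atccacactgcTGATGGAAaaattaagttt
These letters describe the sequence and do not show a bound site. The genes that carry them did not move as a block. GARS, IARS, MARS and NARS were lower with DLX5, AARS, CARS and TARS did not pass the test, and YARS2 was higher. An E-box, CACGTG, the recognition sequence of the MYC and MAX pair, lay in the promoters of IARS, CARS2, EARS2, MARS2 and AIMP2. That was 1 of 16 cytosolic promoters, 3 of 14 mitochondrial ones and 1 of 3 for the scaffolds and kinase. Of all genes with a RefSeq promoter, 8.77% held it. These 5 members were lower, as were 20 of all 41 members, and what part the E-box had in this was not tested.

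More of the synthetase genes were lower than higher with DLX5, few of them by much. Of the 21 cytosolic enzyme genes 10 were lower with DLX5, 4 were higher and 7 did not pass the test. Of the 17 mitochondrial enzyme genes 9 were lower, 2 were higher and 6 did not pass. Over all 41 members 20 were lower, against the background of 28.8% of tested genes, and 7 were higher, against 29.8%. Of the members 65.9% passed the test in either direction, a share near the 63.9% of tested protein-coding genes, the kind all members are, of which 31.3% were lower and 32.6% higher. The median log2 fold change (DLX5 minus control) was −0.11 for the cytosolic genes, −0.19 for the mitochondrial genes and −0.13 for all members, where the median of all tested genes was −0.002; the difference between the cytosolic and mitochondrial groups was not tested. Only FARSA, WARS and TARSL2 stood near or past 1.5-fold: WARS and TARSL2 were the 2 members past it, a size that 29.0% of tested genes reached with an adjusted p under 0.05. In 22 of the 41 genes all 3 DLX5 libraries lay below all 3 controls, as in 30.8% of tested genes, and in 7 all lay above, as in 31.7%.

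Summed over the cytosolic enzymes, the DLX5 libraries held 2692 to 2835 CPM and the controls 2936 to 3008 CPM. The mitochondrial enzymes summed to 771 to 785 CPM with DLX5 and to 816 to 841 CPM in controls. Neither pair of ranges overlapped. With 3 libraries against 3, an exact two-sided permutation test cannot go below p = 0.1.

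**Figure D1:**
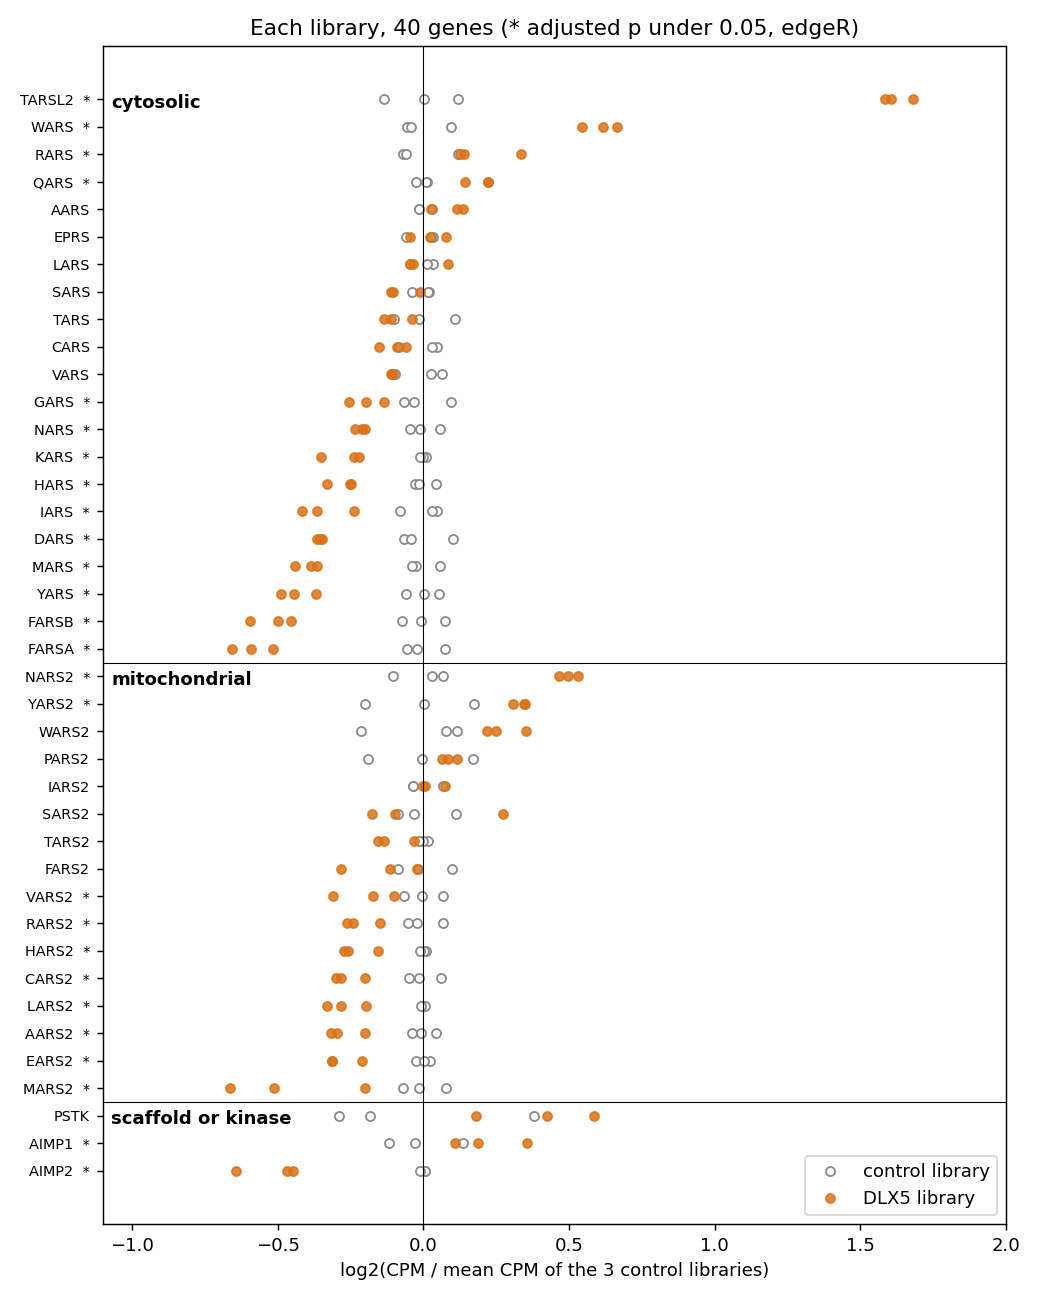
Each point is 1 library, as log2 of its CPM over the mean of the 3 control libraries, for 40 of the 41 genes sorted by log2 fold change within cytosolic enzymes, mitochondrial enzymes and the scaffolds and kinase; open points are control, filled points DLX5, and an asterisk marks an adjusted p under 0.05 (edgeR). TARSL2 stands apart on the right, and the run of FARSA, FARSB, YARS and MARS on the left.

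The largest fall among the cytosolic enzymes was shared by the genes for both chains of phenylalanyl-tRNA synthetase, an enzyme built of 2 alpha chains (FARSA) and 2 beta chains (FARSB). FARSA (chr19:12922479-12934037, minus strand) was at 127, 122 and 134 CPM in DLX5 libraries 1 to 3 and at 202, 184 and 189 CPM in control libraries 1 to 3. FARSB (chr2:222570536-222656337, minus strand) was at 32.8, 36.2 and 35.2 CPM with DLX5 and at 47.2, 52.3 and 49.4 CPM in controls. In both genes every DLX5 library lay below every control, and the log2 fold changes were −0.58 ± 0.06 (SE) for FARSA and −0.52 ± 0.08 for FARSB, with adjusted p of 5.89e-09 and 1.63e-06 (edgeR quasi-likelihood, Benjamini-Hochberg). The mitochondrial enzyme for the same amino acid is a product of a separate gene, FARS2, which works as a monomer; it was at 9.79 ± 0.879 CPM with DLX5 and 10.7 ± 0.707 CPM in controls (SD, n = 3 each), with overlapping libraries, and did not pass (−0.13 ± 0.12).

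YARS, the tyrosyl enzyme, was next, at 74.1, 71.8 and 78.1 CPM with DLX5 and at 101, 105 and 96.7 CPM in controls (−0.43 ± 0.06). MARS, which charges the initiator as well as the elongator methionine tRNA, was at 154, 160 and 162 CPM with DLX5 and at 205, 217 and 203 CPM in controls (−0.40 ± 0.06). For both genes the groups did not overlap, and adjusted p was 1.85e-06 and 1.84e-06 in that order (edgeR quasi-likelihood, Benjamini-Hochberg). KARS and GARS supply lysyl- and glycyl-tRNA to both compartments. KARS was at 161, 177 and 175 CPM with DLX5 and at 208, 206 and 204 CPM in controls (−0.27 ± 0.06), and the groups did not overlap. GARS was at 121, 132 and 126 CPM with DLX5 and at 138, 154 and 141 CPM in controls (−0.20 ± 0.06, adjusted p = 0.0089, edgeR quasi-likelihood, Benjamini-Hochberg); its groups came within a few CPM of each other. Leaving out DLX5 library 1 took the GARS call away (adjusted p = 0.0785 by the same edgeR test). The other cytosolic genes called lower were DARS (−0.36 ± 0.07), IARS (−0.34 ± 0.06), HARS (−0.28 ± 0.06) and NARS (−0.21 ± 0.06), which charge aspartate, isoleucine, histidine and asparagine.

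Against this direction stood 4 cytosolic genes. TARSL2 (chr15:101653598-101724604, minus strand) encodes a threonyl-tRNA synthetase that resembles TARS. It was at 62.2, 65.5 and 61.3 CPM in DLX5 libraries 1 to 3 and at 22.2, 20.5 and 18.6 CPM in control libraries 1 to 3. The DLX5 libraries were thus all near 3-fold above the controls (3.08-fold, log2 1.62 ± 0.08, adjusted p = 1.36e-15, edgeR quasi-likelihood, Benjamini-Hochberg). TARS, the main threonyl enzyme, was at 104, 111 and 106 CPM with DLX5 and at 113, 123 and 106 CPM in controls; the libraries overlapped and the change of −0.09 ± 0.06 did not pass. Per length, in FPKM (fragments scaled to gene length and library size), TARSL2 stood at 0.736 ± 0.0117 times TARS with DLX5 and at 0.224 ± 0.0196 times TARS in controls (SD, n = 3 each).

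WARS (chr14:100333788-100376805, minus strand) encodes the tryptophanyl enzyme, whose transcription is known to respond to interferon gamma. It was at 121, 132 and 128 CPM with DLX5 and at 88.9, 80.1 and 80.9 CPM in controls, with no overlap (1.53-fold, log2 0.61 ± 0.06, adjusted p = 5.51e-09, edgeR quasi-likelihood, Benjamini-Hochberg). Of a list of 21 interferon gamma response genes 19 were tested. Of these, 15 were higher with DLX5 and 1 lower, with a median log2 fold change of 1.05. Among all tested genes 29.8% were higher and 28.8% lower. HLA-C and HLA-B, the heavy chains of class I antigen presentation, were higher by 2.03 ± 0.06 and 2.71 ± 0.09, B2M, their light chain, by 1.63 ± 0.06, and PSMB9, a subunit of the immunoproteasome, by 3.07 ± 0.13, all log2. IRF1, an early target of the interferon signal, was at 10.9 ± 0.55 CPM with DLX5 and 10.7 ± 1.3 CPM in controls, and is named here with its values already known. CIITA, the master regulator of class II antigen presentation, was the gene called lower, and it lost that call when any 1 of the 6 libraries was left out. What part an interferon response had in the WARS value was not tested. Other genes, 2 in number, share 10.6% of the exonic bases of WARS, mainly AL157871.4, which had 0 counts. The span of WARS also overlaps a gene holding at least 10% of its counts. WARS is therefore among the overlapped members left out in 1 of the alternatives below. What part the overlaps had in the WARS value was not tested. The WARS2 gene, for the mitochondrial tryptophanyl enzyme, was at 7.40 ± 0.362 CPM with DLX5 and 6.12 ± 0.738 CPM in controls, and did not pass (0.28 ± 0.15).

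QARS and RARS, for glutamine and arginine, were the other 2 cytosolic genes called higher. QARS was at 215, 227 and 227 CPM with DLX5 and at 196, 196 and 191 CPM in controls (0.20 ± 0.06, adjusted p = 0.0046, edgeR quasi-likelihood, Benjamini-Hochberg). RARS was at 103, 118 and 102 CPM with DLX5 and at 89.0, 102 and 89.7 CPM in controls (0.20 ± 0.07, adjusted p = 0.0146 by the same edgeR test). The QARS groups were clear of each other, and those of RARS all but touched. RARS lost its call without control library 1 (adjusted p = 0.0548), without control library 3 (0.0757) or without DLX5 library 2 (0.112), by the same edgeR test. VARS, CARS, TARS, SARS, LARS, EPRS and AARS did not pass, with log2 fold changes between −0.11 and 0.09.

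The genes of the multi-synthetase complex moved in both directions, as did all tested genes (28.8% lower and 29.8% higher). Of its 11 genes 6 were lower, 3 were higher and 2 fell short of the threshold, with a median of −0.27. AIMP2, a scaffold at the centre of the complex, was at 29.1, 28.7 and 25.4 CPM with DLX5 and at 39.8, 39.8 and 39.4 CPM in controls (−0.52 ± 0.08, adjusted p = 3.61e-06, edgeR quasi-likelihood, Benjamini-Hochberg). EEF1E1, the scaffold also called AIMP3, which binds MARS, was at 5.72, 5.62 and 4.50 CPM with DLX5 and at 7.30, 8.81 and 7.67 CPM in controls (−0.59 ± 0.15, adjusted p = 0.0018 by the same test). In both scaffolds the groups did not overlap. AIMP1, the scaffold that anchors RARS and QARS, was at 39.6, 47.0 and 41.8 CPM with DLX5 and at 36.0, 40.3 and 33.8 CPM in controls. Its groups overlapped, and the change of 0.22 ± 0.08 passed narrowly (adjusted p = 0.0254, edgeR quasi-likelihood, Benjamini-Hochberg). The 3 members called higher were thus AIMP1, RARS and QARS, which are known to form a subcomplex, a grouping noted here after the values were seen. MARS, IARS, DARS and KARS were lower with AIMP2 and EEF1E1, and LARS and EPRS did not pass. The count called higher fell from 3 to 1 without control library 1, without control library 3 or without DLX5 library 2, where AIMP1 had an adjusted p of 0.056, 0.153 and 0.145 by the same edgeR test. Exons of EIF2AK1 share 28.9% of the exonic bases of AIMP2, and exons of TBCK share 11.6% of those of AIMP1; what part these overlaps had in the values was not tested.

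By structural class, the catalytic domains of the cytosolic enzymes fall into those with a Rossmann fold (class I) and those with an antiparallel sheet (class II); EPRS holds both and is counted in each. Of the 10 class I genes 3 were lower and 3 higher, with a median of −0.05, and of the 12 class II genes 7 were lower and 1, TARSL2, higher, with a median of −0.20. Among all tested genes 28.8% were lower and 29.8% higher, and the class I counts lay near these shares. The difference between the classes was not tested. Without scaling factors 5 class I genes were lower. A list of 6 synthetase genes in which mutations are known to cause Charcot-Marie-Tooth neuropathy was also followed. It need not hold every such gene. Within it GARS, HARS, MARS and YARS were lower and WARS was higher. AARS was at 143 ± 5.79 CPM with DLX5 and 134 ± 2.54 CPM in controls, with overlapping libraries.

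The mitochondrial enzymes moved within a narrower range, from −0.44 to 0.50. MARS2, for methionine, was at 12.3, 9.88 and 8.89 CPM in DLX5 libraries 1 to 3 and at 14.9, 13.4 and 13.9 CPM in control libraries 1 to 3 (−0.44 ± 0.12, adjusted p = 0.0034, edgeR quasi-likelihood, Benjamini-Hochberg). EARS2, for glutamate, was at 40.4, 37.6 and 37.6 CPM with DLX5 and at 45.9, 47.5 and 46.8 CPM in controls (−0.28 ± 0.07). In both genes all DLX5 libraries were below all controls, and DLX5 library 1 was the nearest to them. AARS2, for alanine, was at 40.8, 41.4 and 44.3 CPM with DLX5 and at 52.5, 49.5 and 50.6 CPM in controls (−0.27 ± 0.07). LARS2, for leucine, was at 38.2, 36.0 and 34.8 CPM with DLX5 and at 43.9, 43.9 and 43.5 CPM in controls (−0.27 ± 0.07). These groups did not overlap either. Also among the genes called lower were CARS2 (−0.26 ± 0.07), HARS2 (−0.23 ± 0.07), RARS2 (−0.22 ± 0.07) and VARS2 (−0.19 ± 0.07). RARS2 and HARS2 lost their calls without DLX5 library 1, with adjusted p of 0.0713 and 0.0542 by the same edgeR test. VARS2 lost its call without control library 1 (adjusted p = 0.0927), control library 3 (0.058), DLX5 library 1 (0.0684) or DLX5 library 2 (0.156), by the same edgeR test, and 22% of its exonic bases are shared with other genes, mainly GTF2H4.

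NARS2 and YARS2 went the other way. NARS2 (chr11:78435961-78574874, minus strand), for asparagine, was at 44.1, 43.0 and 42.1 CPM with DLX5 and at 32.0, 31.2 and 28.4 CPM in controls, a 1.41-fold higher level with no overlap (log2 0.50 ± 0.08, adjusted p = 3.85e-06, edgeR quasi-likelihood, Benjamini-Hochberg). YARS2, for tyrosine, was at 22.1, 22.7 and 22.8 CPM with DLX5 and at 17.9, 20.1 and 15.5 CPM in controls (0.33 ± 0.10, adjusted p = 0.0053 by the same test), and it lost its call without control library 3 (adjusted p = 0.0569, edgeR). The DLX5 libraries were tight in YARS2 and the controls were spread. FARS2, TARS2, SARS2, IARS2, PARS2 and WARS2 did not pass. SARS2, for serine, was at only 1.51 ± 0.26 CPM with DLX5 and 1.5 ± 0.11 CPM in controls, and 57.0% of its exonic bases are shared with other genes; what part the overlap had in its level was not tested. Counts on the mitochondrial chromosome made up 7.72 to 9.13% of the DLX5 libraries and 7.10 to 7.91% of the controls, ranges that overlapped.

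Setting each cytosolic enzyme beside the mitochondrial enzyme for the same amino acid gave 19 pairs, with glutamate and proline both served by EPRS, phenylalanine by both chains of the cytosolic enzyme, and threonine by TARS and TARSL2. Both partners were lower in 3 pairs, HARS with HARS2 and MARS with MARS2 among them. The partners moved in opposite directions in 3 pairs: NARS fell and NARS2 rose, YARS fell and YARS2 rose, and RARS rose while RARS2 fell. That count of 3 fell to 1, asparagine, without control library 3, where RARS and YARS2 lost their calls (adjusted p = 0.0757 and 0.0569, edgeR), and to 2 without control library 1, DLX5 library 1 or DLX5 library 2. Without scaling factors the pairs with both partners lower numbered 6. In 10 pairs 1 partner passed the test, and in 3 pairs neither did. By single gene, 10 of 21 cytosolic genes were lower and 4 higher, and 9 of 17 mitochondrial genes were lower and 2 higher. Whether the pair counts differ from what these calls give for unrelated partners was not tested. The widest gap lay between TARSL2 and TARS2, with a difference in log2 fold change of 1.73. TARS2 was at 56.9, 57.7 and 62.1 CPM with DLX5 and at 64.2, 63.4 and 62.7 CPM in controls (−0.11 ± 0.07, not past the threshold), so the gap came from TARSL2. Next came tyrosine (−0.76, cytosolic minus mitochondrial) and asparagine (−0.71).

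NARS was at 148, 147 and 145 CPM with DLX5 and at 165, 177 and 169 CPM in controls. Per length, the FPKM ratio of NARS to NARS2 was 2.63 ± 0.0327 with DLX5 and 4.31 ± 0.311 in controls (SD, n = 3 each; exact permutation p = 0.1, the smallest possible). The ratio of YARS to YARS2 was 0.870 ± 0.0355 with DLX5 and 1.49 ± 0.136 in controls (exact permutation p = 0.1, n = 3 each). The 3 control ratios were 1.48, 1.36 and 1.63, and the 3 DLX5 ratios were 0.880, 0.830 and 0.899. The ratio thus fell, and in FPKM the order of the tyrosyl partners was reversed. That order depends on the gene lengths, which count all annotated exonic bases (8212 for YARS and 2152 for YARS2). In CPM, YARS stood above YARS2 in both groups (74.7 against 22.5 with DLX5, 101 against 17.9 in controls). The ratio of RARS to RARS2 was 1.79 ± 0.0762 with DLX5 and 1.34 ± 0.0445 in controls. In 6 of the 19 pairs the ratios of the groups overlapped: proline, histidine, methionine, serine, valine and, for TARS with TARS2, threonine. The ratio of HARS to HARS2, for example, was 1.01 ± 0.035 with DLX5 and 1.04 ± 0.0252 in controls.

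**Figure D2:**
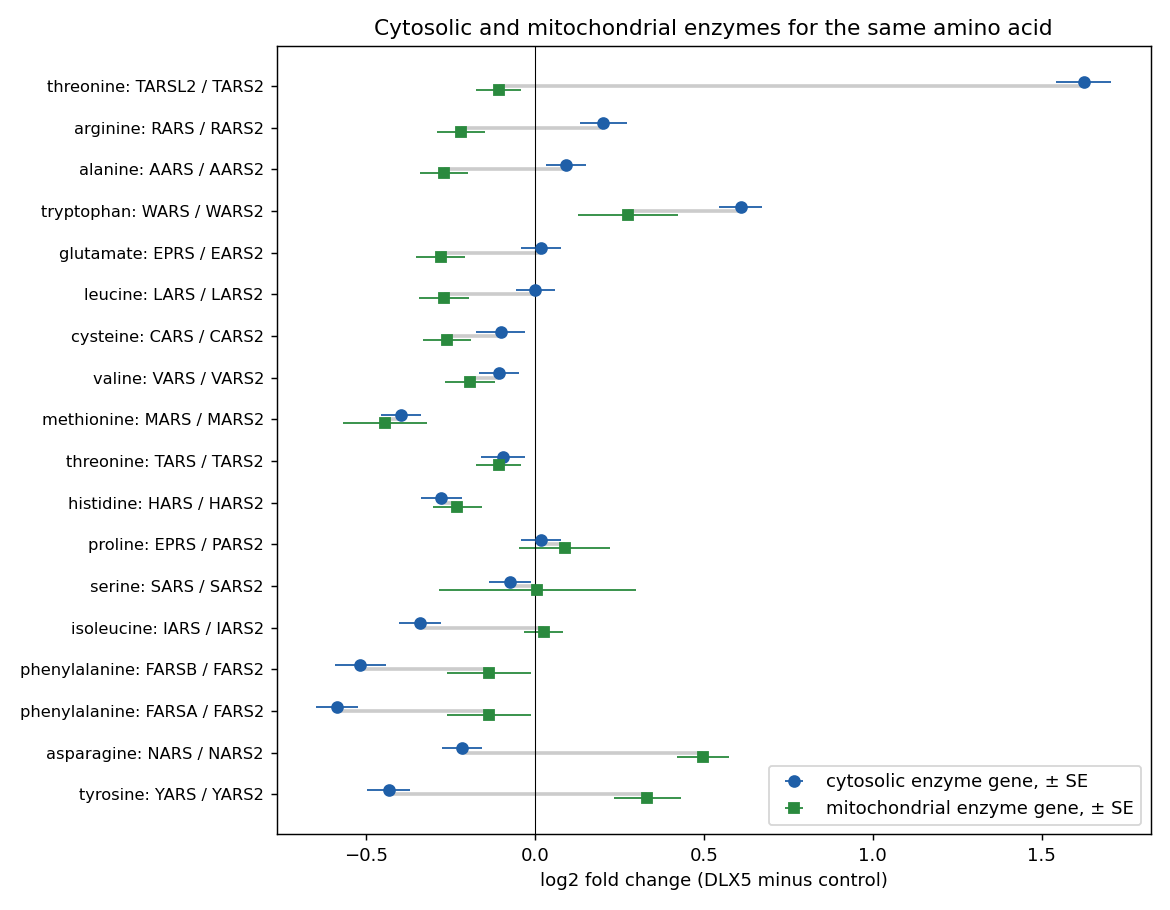
Log2 fold change (DLX5 minus control) with its SE for the cytosolic gene (circle) and the mitochondrial gene (square) of all but 1 of the 19 pairs, sorted by the difference. TARSL2 with TARS2 is at the top, asparagine and tyrosine are at the bottom with the mitochondrial gene to the right of zero, and histidine and methionine lie in the middle with their partners together.

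HARS and HARS2 are also neighbours, arranged head to head on chromosome 5, and these 84 bases on the plus strand, from RefSeq on GRCh38.p14, lie between their start sites; they are shown because both genes read outwards from them.
HARS to HARS2, chr5:140691371-140691454: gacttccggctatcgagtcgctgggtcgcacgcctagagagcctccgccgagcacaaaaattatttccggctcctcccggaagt
HARS was at 88.6 ± 2.77 CPM with DLX5 and 107 ± 2.95 CPM in controls, and HARS2 at 41.8 ± 1.85 and 49.0 ± 0.374 CPM (SD, n = 3 each). The GENCODE exons of the pair overlap. Other genes, 2 in number and mainly HARS, share 15.8% of the exonic bases of HARS2. With no strand setting known for the counting, reads from the shared bases cannot be told apart. Several other members have the start of another gene within 1000 bases on the other strand. AIMP2 shares its start region with PMS2, a DNA mismatch repair gene, which was lower with a log2 fold change of −0.61 ± 0.08, where AIMP2 had −0.52 ± 0.08. KARS lies beside TERF2IP, a telomere protein gene (−0.38 ± 0.06), EARS2 beside UBFD1 (−0.28 ± 0.06) and RARS2 beside ORC3, an origin recognition gene (−0.31 ± 0.09), and all of these neighbours were lower together with the member. WDR25 was higher by 0.92 ± 0.10 beside WARS. The call differed between the neighbours elsewhere: DDX19B, an RNA helicase gene, was lower (−0.39 ± 0.10) beside AARS, MRPS12, a mitochondrial ribosomal protein gene, was lower (−0.35 ± 0.08) beside SARS2, and C10orf88 was higher (0.27 ± 0.11) beside PSTK, which had the same sign (0.40 ± 0.21); none of these 3 members passed the test. ING1 (0.07 ± 0.09) beside CARS2, LYRM4 (−0.19 ± 0.09) beside FARS2 and the noncoding GARS-DT beside GARS (−0.03 ± 0.08), DARS-AS1 beside DARS (−0.23 ± 0.46), AC034231.1 beside TARS (0.22 ± 0.39) and AL359915.2 beside WARS2 (0.33 ± 0.21) did not pass. AC108448.3, beside CARS, had 2 counts in all and was not tested.

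PSTK phosphorylates seryl-tRNA on its way to selenocysteinyl-tRNA, and SEPSECS makes the last step. PSTK was at 4.39, 4.91 and 3.71 CPM with DLX5 and at 2.88, 4.26 and 2.68 CPM in controls; the groups overlapped and the change of 0.40 ± 0.21 did not pass (adjusted p = 0.101, edgeR quasi-likelihood, Benjamini-Hochberg). Without control library 2, the highest control, it passed (0.0193, same test). SEPSECS was at 19.3, 18.3 and 18.0 CPM with DLX5 and at 12.3, 14.0 and 10.8 CPM in controls (0.59 ± 0.11). Downstream of them, EEFSEC, the elongation factor that brings selenocysteinyl-tRNA to the ribosome, was lower (−0.49 ± 0.08), as was SECISBP2, which binds the selenocysteine insertion element (−0.54 ± 0.07). In the list of 11 accessory genes of aminoacyl-tRNA that holds these 3, 10 were tested. Of those, 6 were lower and 1, SEPSECS, higher, with a median of −0.26, beside 28.8% and 29.8% of all tested genes. PRXL2A (−0.46 ± 0.06) is among the 6, although it is a redox protein with no known place in tRNA charging and was listed in error.

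Between genes, levels were compared in FPKM, since longer genes collect more counts. In controls FARSA was the most abundant member, at 78.1 ± 3.68 FPKM, followed by IARS2 at 56.3 ± 2.30 FPKM, KARS at 50.3 ± 0.363 FPKM, VARS at 43.6 ± 2.54 FPKM and NARS at 41.3 ± 1.47 FPKM (SD, n = 3 each). The lowest were PSTK at 0.531 ± 0.138 FPKM and SARS2 at 0.459 ± 0.0333 FPKM. Of the 40 neighbours in the control order 23 did not differ beyond the range of their libraries, NARS and the next gene QARS among them. With DLX5, IARS2 at 57.3 ± 1.84 FPKM stood above FARSA at 52.0 ± 2.41 FPKM, and TARSL2 moved from rank 36 (4.43 ± 0.388 FPKM) to rank 21 (13.6 ± 0.530 FPKM). By FPKM, the cytosolic gene was the more abundant partner in 16 of the 19 pairs in controls and in 15 with DLX5. The pair that changed order was YARS with YARS2. These ratios depend on the annotated exonic lengths, which differ between partners (8212 bases for YARS and 2152 for YARS2). The control ratio of cytosolic to mitochondrial FPKM ran from 0.287 for TARSL2 over TARS2 to 52.1 for SARS over SARS2, with a median of 4.31. SARS2 had only 145 counts in all, and 57.0% of its exonic bases are shared with other genes. IARS2 was the main exception among the abundant genes, with IARS at 0.503 ± 0.0208 times IARS2 in controls and 0.390 ± 0.0149 times with DLX5.

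**Figure D3:**
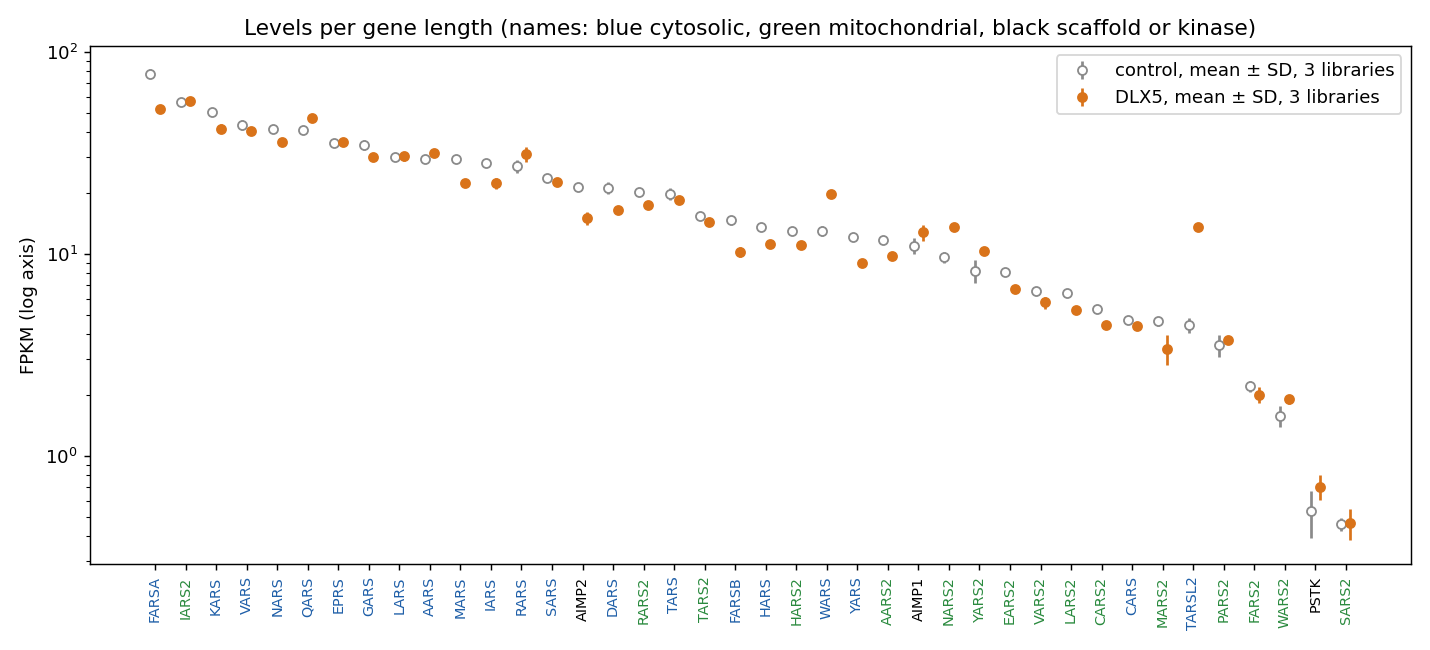
Mean FPKM with SD over 3 libraries (log axis) for 40 of the 41 genes in order of their control level, open points control and filled points DLX5, with names in blue for cytosolic, green for mitochondrial and black for the scaffolds and kinase. TARSL2, WARS and NARS2 lie above their control points, FARSA, FARSB and AIMP2 below, and PSTK and SARS2 are the lowest.

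After charging, the EF1 complex carries aminoacyl-tRNA to the ribosome. EEF1A1, its main carrier, was at 7976 ± 448 CPM with DLX5 and 7794 ± 359 CPM in controls and did not pass (0.03 ± 0.06). EEF1A2, the carrier isoform of neurons and muscle, was at 304, 314 and 319 CPM with DLX5 and at 657, 566 and 587 CPM in controls. All DLX5 libraries were thus near a level of 0.517 times the controls (log2 −0.95 ± 0.06). The exchange factor subunits EEF1B2 (−0.43 ± 0.06) and EEF1D (−0.30 ± 0.07) were lower too. That made 3 of 4 tested genes of the complex lower and 0 higher, beside 28.8% and 29.8% of all tested genes. At an unadjusted p under 0.05 the number higher was also 0, and it was 0 by DESeq2 and by limma. EEF1G, the remaining subunit, is listed at 0 counts in every library, and 99.9% of its exonic bases are shared with other genes, mainly AP002990.1, so its level was not analysed here.

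The genes for making tRNA were mostly lower, where 28.8% of all tested genes were lower and 29.8% higher. Of 23 genes of RNA polymerase III and its factors, which transcribe tRNA genes, 14 were lower and 4 higher, with a median of −0.33. POLR3K (−1.21 ± 0.09) and POLR3A (−0.51 ± 0.06) are polymerase subunits, and GTF3C4 (−0.68 ± 0.06) is a subunit of the factor that recognises tRNA promoters. MAF1, the repressor of RNA polymerase III, was among those higher (0.30 ± 0.08, named after its values were seen). The count called higher fell from 4 to 2 without control library 3 or without DLX5 library 2. Of 49 genes of nuclear and cytosolic tRNA processing and modification 29 were lower and 4 higher, with a median of −0.22. YRDC, which starts the threonylcarbamoyl modification of tRNA, was at 22.5 ± 0.54 CPM with DLX5 and 50.4 ± 4.02 CPM in controls (−1.16 ± 0.08), and RPP25, a subunit of RNase P, at 37.6 ± 2.98 and 75.4 ± 6.72 CPM (−1.0 ± 0.08). WDR4, the partner of METTL1 in the tRNA guanosine methyltransferase, was lower (−0.88 ± 0.08), as was PUS7, a pseudouridine synthase (−0.67 ± 0.07). The count called higher fell from 4 to 2 without control library 1, without control library 3 or without DLX5 library 2.

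Around the mitochondrial enzymes, 14 of 29 genes of mitochondrial tRNA maturation and translation were lower and 4 higher, beside 28.8% and 29.8% of all tested genes. Their median was −0.20, close to the −0.19 of the mitochondrial synthetases. HSD17B10, a subunit of mitochondrial RNase P, was lower (−0.60 ± 0.07), as were GTPBP3, which modifies the wobble base (−0.42 ± 0.07), the elongation factor GFM1 (−0.39 ± 0.07) and LRPPRC, which stabilises mitochondrial mRNA (−0.38 ± 0.06). The amidotransferase that completes mitochondrial glutaminyl-tRNA after EARS2 was split, and its genes are named here for that role: QRSL1, the catalytic subunit, was at 26.3, 29.8 and 24.9 CPM with DLX5 and at 21.8, 22.8 and 21.8 CPM in controls (0.29 ± 0.09), while GATB was at 25.9 ± 1.1 and 29.8 ± 1.8 CPM (−0.20 ± 0.08) and GATC did not pass (−0.16 ± 0.09). The count called higher fell from 4 to 2 without control library 3, without DLX5 library 2 or without DLX5 library 3.

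The gene for the sensor of uncharged tRNA was higher and that for its effector lower. EIF2AK4, the gene for GCN2, was at 127, 130 and 120 CPM with DLX5 and at 76.2, 80.2 and 81.3 CPM in controls, with no overlap (0.66 ± 0.06, adjusted p = 6.88e-10, edgeR quasi-likelihood, Benjamini-Hochberg). IMPACT, which inhibits GCN2 by competing for its activator, was also higher (0.45 ± 0.08). EIF2S1, the subunit that the kinase phosphorylates, and EIF2B1, a subunit of the exchange factor that the phosphorylated form blocks, were lower (−0.49 ± 0.07 and −0.36 ± 0.07). Of the 12 genes of that list 4 were lower and 2 higher, with a median of −0.07, beside 28.8% and 29.8% of all tested genes. ATF4 was at 89.9, 86.1 and 100 CPM with DLX5 and at 117, 121 and 112 CPM in controls (−0.34 ± 0.07, adjusted p = 8.22e-05 by the same test), with no overlap; ATF4 is controlled mainly at translation, which these libraries do not measure.

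Of 33 genes of ATF4 and the amino acid response 32 were tested, and 17 were lower and 11 higher, with a median of −0.28. The share higher lay near the 29.8% of all tested genes, of which 28.8% were lower. STC2, a secreted glycoprotein, rose by 2.19 ± 0.09 and JDP2, a transcription factor partner of ATF proteins, by 1.70 ± 0.10. EIF4EBP1, the inhibitor of cap-dependent translation (−0.68 ± 0.07), and PHGDH, the first enzyme of serine synthesis (−0.53 ± 0.06), were lower. ASNS, asparagine synthetase, was at 3.31, 3.10 and 3.53 CPM with DLX5 and at 1.21, 2.34 and 2.25 CPM in controls, a low level in every library (0.76 ± 0.24, adjusted p = 0.0093, edgeR quasi-likelihood, Benjamini-Hochberg). Without control library 1 its adjusted p was 0.0761, by edgeR. DDIT3, the stress factor CHOP, was at 4.81, 5.68 and 4.93 CPM with DLX5 and at 4.42, 3.90 and 3.47 CPM in controls and did not pass (0.39 ± 0.18, adjusted p = 0.06, same test); without control library 1 it did (0.0437). DDIT3 lies tail to tail with MARS on chromosome 12, and 13.3% of the exonic bases of MARS are shared with other genes, mainly ARHGAP9, which had 11 counts. The list is mixed in direction, and it shares no member with the synthetases.

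The MYC family, whose proteins bind the E-box named above, also split. MYCN was at 26.9, 26.2 and 26.7 CPM with DLX5 and at 5.36, 4.92 and 4.39 CPM in controls (2.45 ± 0.11), and MYC was at 68.5, 67.9 and 69.0 CPM with DLX5 and at 98.9, 91.2 and 86.9 CPM in controls (−0.43 ± 0.07). The groups overlapped in neither gene. MYCL was lower (−0.40 ± 0.14) and MAX did not pass (0.10 ± 0.07). The count called lower fell from 2 to 1 without DLX5 library 1. What part any of these factors had in the synthetase values was not tested.

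**Figure D4:**
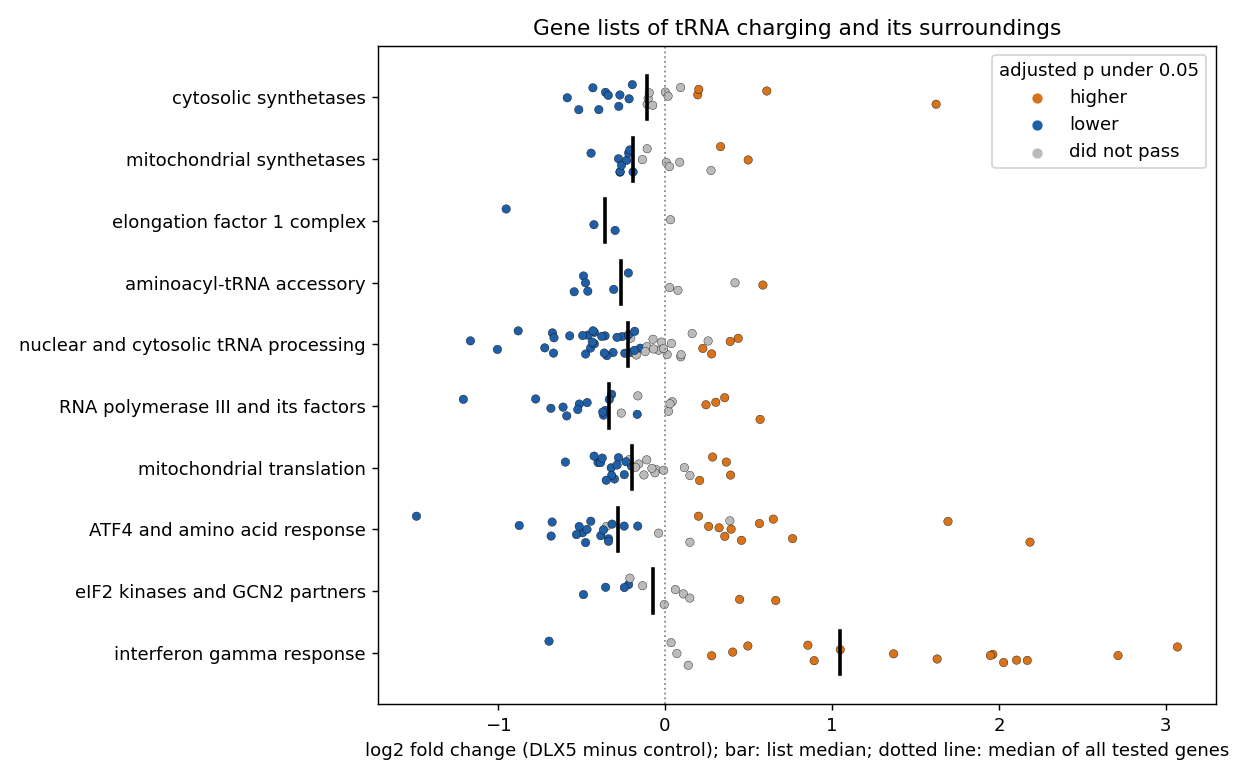
Log2 fold change (DLX5 minus control) of each tested gene in the synthetase groups and 8 lists around tRNA charging; colours give the call at an adjusted p under 0.05 (edgeR), thick bars the list medians, and the dotted line the median of all tested genes, −0.002. The EF1, RNA polymerase III, ATF4, accessory, tRNA processing and mitochondrial translation lists have medians left of both synthetase groups. The eIF2 list has its median to the right of both, and the interferon gamma list lies furthest right with a median of 1.05.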

How the data were processed

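Total RNA of 3 DLX5 overexpression and 3 Control libraries of SY5Y cells was sequenced. The authors deposited whole-number gene counts and FPKM values made from the same reads; per the submitters' processing notes the tools were HISAT2 2.0.5 and featureCounts 1.5.0-p3, and the strand setting was not given there. Those notes name hg19, but all 58735 gene coordinates equal GENCODE 29 on GRCh38, which is used here. Deposited counts were fitted with edgeR 4.0.16 in R 4.3.3 (TMM factors, filterByExpr, quasi-likelihood test, Benjamini-Hochberg over 17269 genes, two-sided, adjusted p under 0.05), without a replicate block; the biological coefficient of variation was 6.17%. The fit was tested on simulated data. No 2 libraries were copies of each other. Deposited FPKM served for levels between genes, for the ratios of partner genes in each library and for the limma alternatives on log2 FPKM. Alternatives were DESeq2 1.42.0, limma 3.58.1 (voom, and log2 of FPKM with pseudocounts of 1 or 0.1), other scaling, filters and thresholds, and leaving out each library. Promoters came from RefSeq. Figures were drawn with matplotlib 3.10.9.

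Members and lists were chosen with earlier results of these data known. Any member could be named; library values are given for the 6 cytosolic and 6 mitochondrial genes called with the largest change, those called against their group's commoner direction, AIMP1, AIMP2, PSTK, TARSL2, GARS, KARS, QARS, and the pairs of 3 amino acids that differed most. Of each other list up to 4 genes with the smallest adjusted p were named, with ATF4, DDIT3, ASNS, EEF1E1, MYC, MYCN and DLX5 always, and neighbours whose start lay within 1000 bases. A member and a few other genes are in the counts but are not reported here by name.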

Additional observations from a re-analysis of the deposited data

How the results depend on the processing

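Of the 27 members called, 20 kept their call and direction in all 17 refits, 7 lost it in at least 1, and no called member changed direction; of the 14 not called, 5 gained a call in at least 1. The 7 that lost it were GARS, RARS, VARS2, RARS2, HARS2, AIMP1 and YARS2, with log2 fold changes between −0.23 (HARS2) and 0.33 (YARS2). DESeq2 took the calls of VARS2 (adjusted p = 0.0628), AIMP1 (0.0753) and ASNS (0.055). Of the 14 members that did not pass, 9 kept their sign in all 17 refits and 5 changed it in at least 1, as given next. Without scaling factors LARS turned to −0.065, IARS2 to −0.040, EPRS to −0.049 and SARS2 to −0.059. With upper-quartile factors LARS turned to −0.033, IARS2 to −0.0082, EPRS to −0.016 and SARS2 to −0.027. With protein-coding genes only LARS was at −0.0011, and by limma-voom SARS2 was at −0.0051. With single libraries left out LARS ranged from −0.036 to 0.027, EPRS from −0.013 to 0.052, PARS2 from −0.0044 to 0.18 and SARS2 from −0.13 to 0.10. Omitting scaling factors moved the median of all tested genes to −0.07 and upper-quartile factors moved it to −0.04.

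The cytosolic median was −0.17 without scaling factors, −0.14 with upper-quartile factors, −0.15 with TARSL2 and AIMP2 counted as mitochondrial by their symbols, and −0.15 to −0.10 when single libraries were left out. The mitochondrial median was −0.26 without scaling factors, −0.23 with upper-quartile factors, −0.13 with the members left out that overlap another gene holding at least 10% of their counts, and −0.20 to −0.13 when single libraries were left out. Leaving out those overlapped members left 6 cytosolic genes lower, 4 mitochondrial genes lower and 1 mitochondrial gene higher.

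A minimum of 1.5-fold left the cytosolic genes with 2 higher and 0 lower, the mitochondrial genes with 0 and 0, the complex with 0 higher and 1 lower, class I with 1 higher and 0 lower, class II with 0 lower and the neuropathy genes with 0 lower. It left EF1 with 1 lower, the accessory list with 0 lower, mitochondrial translation with 0 higher and 1 lower, the ATF4 list with 4 and 4, the eIF2 list with 1 higher and 0 lower, tRNA processing with 0 higher and 7 lower, RNA polymerase III with 0 higher and 5 lower, and the MYC family with 0 lower.

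The number higher in the complex was 1 with either FPKM pseudocount, without scaling factors or at an adjusted p of 0.01, and 1 to 3 with single libraries left out. In mitochondrial translation it was 2 by DESeq2 or at 0.01, and 2 to 4 with libraries left out. In tRNA processing it was 1 by DESeq2 or at 0.01, 2 with either FPKM pseudocount or without scaling factors, and 2 to 4 with libraries left out. For RNA polymerase III it was 2 with either FPKM pseudocount, without scaling factors or at 0.01, and 2 to 4 with libraries left out. Class I had 5 lower without scaling factors. The mitochondrial genes had 1 to 2 higher with libraries left out. The MYC family had 1 lower by DESeq2 or at 0.01, and 1 to 2 with libraries left out. The interferon gamma list had 0 lower by DESeq2, with either FPKM pseudocount, with no filter on low counts, with the replicate block, at 0.01 and in every refit without 1 library (0 to 0). Beyond the settings' own construction (fewer libraries, a stricter threshold), the cause was not tested.

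Replicate numbers did not pair the libraries: deviations of same-numbered libraries correlated at 0.018, 0.124 and −0.056. With the replicate block the cytosolic genes had 10 lower and 4 higher, the mitochondrial genes 9 and 2, and 10224 genes passed in all, against 10121 without it. Counts limit SARS2 and PSTK most, with 145 and 368 counts over the 6 libraries.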
